A study of Mus musculus with 12 samples.

Results

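Coinhibitory receptors are surface proteins that dampen T cell activation, and the 8 genes Pdcd1, Ctla4, Lag3, Tigit, Btla, Cd160, Havcr2 and Cd200 were taken by name from the 25793 genes of a count table. The rule of choice used no measured value, although earlier results of these data were known when it was made. Of the 8 genes, 7 had reads and were tested, and Havcr2 had 0 counts in every library. The series addresses how PD-1, the protein product of Pdcd1, regulates follicular helper T (Tfh) cells, the CD4 T cells that enter B cell follicles and help B cells. The question asked of these genes was whether the other inhibitory receptors compensated for, or followed, a difference in Pdcd1.

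RNA was sequenced from 12 bulk libraries of mouse OT-II T cells of strain C57BL/6, which carry a T cell receptor for an ovalbumin peptide. The groups were 6 libraries of Pdcd1+/+ cells (WT) and 6 of Pdcd1KI/KI cells (KI). Cells of both groups had been transduced to carry GFP and given to B6 mice along with MD4 B cells that expressed dsRed. The recipients received HEL-OVA with LPS and Alum under the skin, and on day 5 their lymph nodes were sorted for CXCR5hi GFP+ CD4+ OT-II T cells. Each library came from 100 to 200 sorted cells lysed directly and amplified with a modified single-cell method. What the knock-in allele changes, and the age of the animals, are not given in the sources used here. Every title also carries a first number (1 or 2) and a second number (1 to 3), and each genotype has 3 libraries at each first number. Whether these numbers mark animals, experiments or repeat libraries is not stated, so p-values measure only the spread between libraries, which may be technical. A library is named below by its genotype and both numbers, for example WT 1-3.

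Most of these receptors are members of the immunoglobulin superfamily. PD-1 and BTLA recruit phosphatases through motifs in their cytoplasmic tails, whereas CTLA-4 competes with the stimulatory receptor CD28 for CD80 and CD86. TIGIT competes with CD226 for CD155, BTLA and CD160 share the ligand HVEM, LAG-3 binds MHC class II, TIM-3 (Havcr2) is found on exhausted and T helper 1 cells, and CD200 is the ligand of an inhibitory receptor on myeloid cells. PD-1, TIGIT, BTLA and CD200 are well known on Tfh cells, and NFAT factors and AP-1 are textbook activators of Pdcd1 transcription after T cell receptor signalling.

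The sequences upstream of Pdcd1, Ctla4 and Btla are shown because these were the genes of the set whose transcripts differed by first title number. They are the 250 bases before the annotated start site in the RefSeq promoter table of build GRCm38.p6, in the direction of transcription, at chr1:94052554-94052803 on the minus strand for Pdcd1, chr1:60908775-60909024 on the plus strand for Ctla4 and chr16:45224087-45224336 on the plus strand for Btla. Of the 8 genes, 7 matched this table, all except Lag3. Capitals mark matches to the NFAT core GGAAA, searched on both strands.
Pdcd1: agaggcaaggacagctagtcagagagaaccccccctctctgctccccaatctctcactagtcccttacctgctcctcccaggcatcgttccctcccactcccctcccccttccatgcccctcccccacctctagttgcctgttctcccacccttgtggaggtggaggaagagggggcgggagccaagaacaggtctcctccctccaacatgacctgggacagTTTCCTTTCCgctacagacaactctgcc
Ctla4: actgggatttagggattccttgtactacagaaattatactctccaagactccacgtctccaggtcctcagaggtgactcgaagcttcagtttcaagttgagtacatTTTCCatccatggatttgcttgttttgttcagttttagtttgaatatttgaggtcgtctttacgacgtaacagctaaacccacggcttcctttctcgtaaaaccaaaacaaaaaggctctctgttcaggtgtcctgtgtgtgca
Btla: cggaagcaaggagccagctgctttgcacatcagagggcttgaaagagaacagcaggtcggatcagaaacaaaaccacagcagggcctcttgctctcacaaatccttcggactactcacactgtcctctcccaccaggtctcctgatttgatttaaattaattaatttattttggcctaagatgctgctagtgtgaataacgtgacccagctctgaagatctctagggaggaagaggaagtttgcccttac
The Pdcd1 window held 2 adjacent matches, whose first bases lay at -28 and -23 from the start site, and the Ctla4 window held 1 at -144. The Btla window held none. Of 32851 windows of this length in the table, 55.6% held at least 1 match to GGAAA. The AP-1 motif TGANTCA, searched the same way, was in none of the 3 windows and in 6.75% of all windows, and no 2 matches overlapped. A match to such short letters is a description and shows no binding.

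Libraries held 717506 to 1801504 reads assigned to genes. WT 1-3 and KI 2-1 stood apart, with 43.8% and 34.3% of their reads aligned to several places against 26.7% to 30.3% in the other 10 libraries, and WT 1-3 also had the lowest total. The 7 T cell markers summed to between 4770 and 6335 CPM (counts scaled to a common library total) in every library, with Cd4 at 294 to 542 CPM. Cxcr5, the receptor used for the sort, was at 340 to 801 CPM, whereas the Tfh regulator Bcl6 (1.3 to 17.4 CPM) and the Tfh cytokine Il21 (0 to 17.8 CPM) were low in every library. The 8 Tfh markers summed to 1544 to 2410 CPM. Foxp3, which defines regulatory T cells, reached at most 2.2 CPM, and Pax5 and Itgax, which mark B cells and dendritic cells, had no reads. The 5 regulatory T cell markers, most of it from Ikzf2 and Nrp1, summed to 178 to 580 CPM over WT libraries and 107 to 254 CPM over KI libraries. The sum of 9 CD8 and cytotoxic markers followed the first number, with 47.2 to 200.4 CPM at number 1 and 273.5 to 694 CPM at number 2. The sum of 8 B cell markers was 149 to 363 CPM over WT libraries and 123 to 249 CPM over KI libraries. The sum of 7 myeloid markers was highest in WT 1-3, at 236 CPM, and at most 50.5 CPM in the other libraries.

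Pdcd1, the gene that carries the knock-in, lies at chr1:95934884-95949130 on the minus strand (build NCBIM37). Its reads were lower in KI, at 70.0 ± 47.2 CPM (SD, n = 6), than in WT, at 292 ± 151 CPM (SD, n = 6). The WT libraries with first number 1 held 435, 523 and 260 CPM, and those with first number 2 held 166, 198 and 172 CPM. The KI libraries held 111, 130 and 94.1 CPM at first number 1, and 39.9, 24.4 and 21.5 CPM at first number 2. The highest KI library was lower than the lowest WT library, and within each genotype all 3 libraries with first number 2 lay below the 3 with first number 1. The KI mean was 24.0% of the WT mean over all libraries, 27.5% within first number 1 and 16.0% within first number 2. In bulk RNA, fewer cells that express a gene and less RNA per cell cannot be told apart. Since what the knock-in allele changes is not given, whether its reads are counted as fully as those of the WT allele is not known here.

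Over all 12 libraries, Pdcd1 had a log2 fold change of -2.05 in KI against WT (SE 0.42, 95% interval -2.93 to -1.17), a fold of 0.241 with an interval of 0.131 to 0.444. Its edgeR adjusted p was 0.231, so it did not pass the threshold of 0.05 over the 7542 genes tested, although only 2 genes had a smaller unadjusted p (edgeR, 9.58e-05 for Pdcd1). DESeq2 on the same counts called it (-2.07, adjusted p 0.0012). Within first number 1 the edgeR log2 fold change was -1.88 (SE 0.28, adjusted p 0.0400 over 7436 genes), and within first number 2 it was -2.68 (SE 0.32, adjusted p 0.0010 over 7945 genes). With all 12 libraries and a term for the first number, edgeR also called it (-2.24, SE 0.22, adjusted p 7.6e-06), so the missed threshold above holds for the fit without that term. Reads counted for Pdcd1 were therefore lower in KI within each first number. In a separate fit over all 12 libraries, the interaction of genotype and first number was -0.82 (SE 0.40, edgeR adjusted p 0.705). Without WT 1-3 the pooled value was -2.08 (edgeR adjusted p 0.271), and without KI 2-1 it was -1.94 (0.438).

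**Figure D1:**
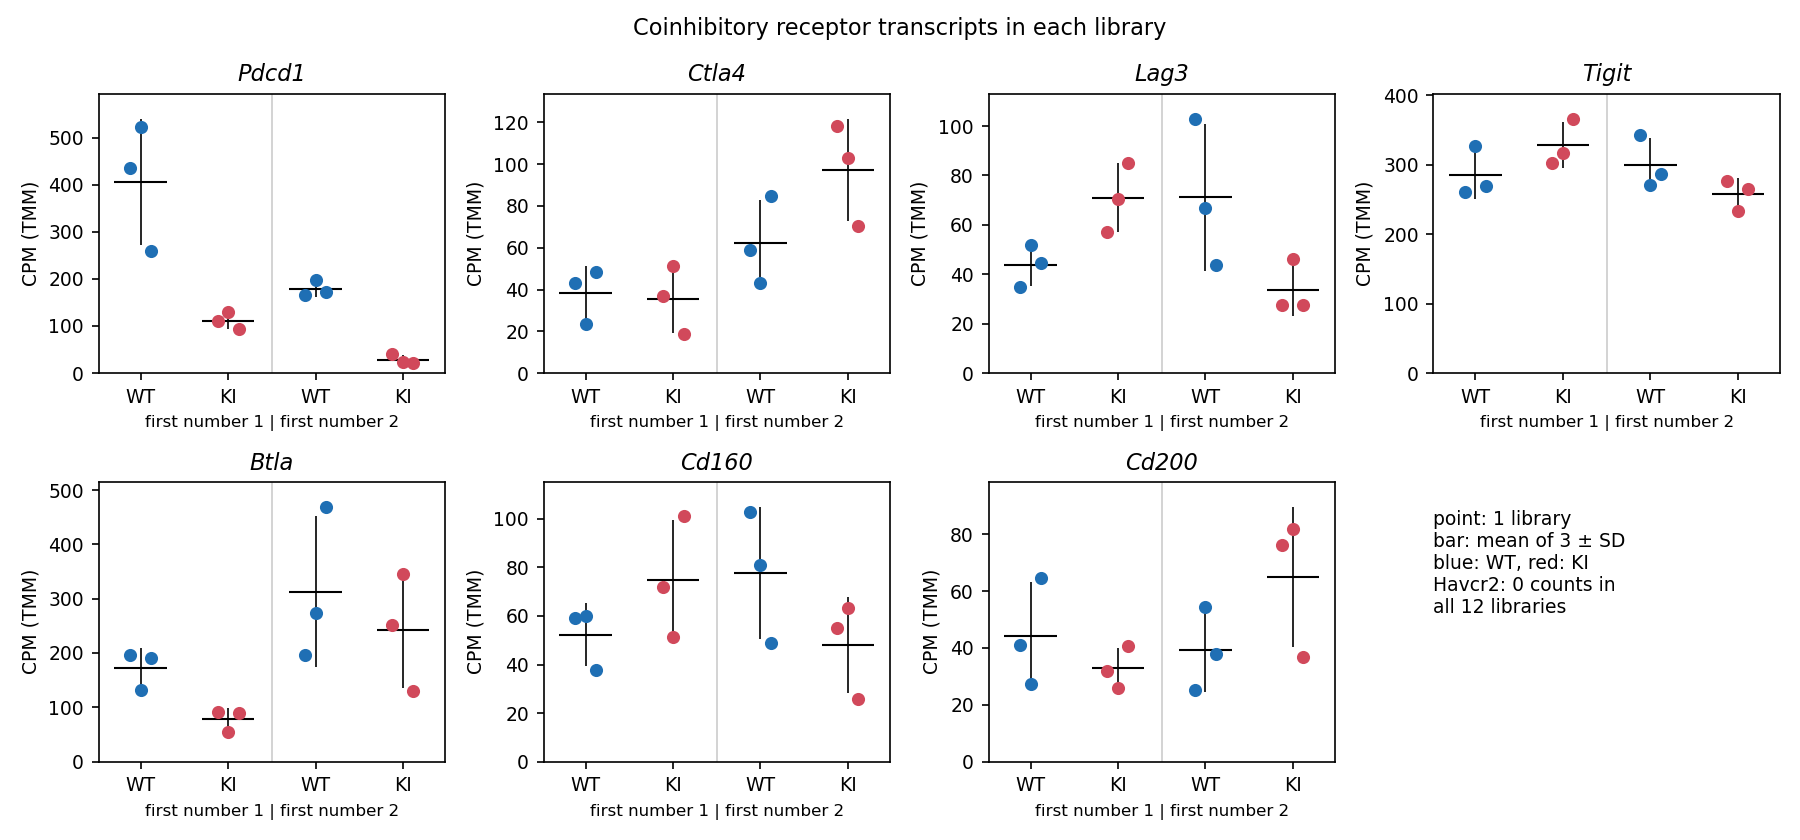
Normalized counts (CPM, TMM scaling, linear axis from 0) of the 7 coinhibitory genes with reads, 1 point per library, split by genotype and first title number; bars are means of 3 libraries and lines are ± SD. Pdcd1 is lower in KI at both numbers, Ctla4 and Btla are higher at number 2, and the KI and WT means of Ctla4, Lag3, Tigit, Cd160 and Cd200 swap order between the numbers.

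Among the 7 tested receptors, 0 passed the edgeR threshold for KI against WT, where 0.0265% of all genes tested passed. Pdcd1 alone had an unadjusted p under 0.05, 1 of 7 genes against 5.4% of all genes, and it was the 1 gene whose WT and KI libraries did not overlap, against 0.371% of all genes. DESeq2 called 1 of the 7, Pdcd1, and limma-voom called 0, with 2 at an unadjusted p under 0.05. The median log2 fold change of the 7 genes was -0.09, and that of the 6 genes other than Pdcd1 was -0.05, beside 0.02 over all genes tested. Within first number 1, 1 of 7 was called (Pdcd1; 0.0403% of all genes), and within first number 2 again 1 of 7 (Pdcd1; 0.0126%). With the first-number term over all 12 libraries it was also 1 of 7 (Pdcd1; 0.053% of all genes). In that fit 2 of 7 had an edgeR unadjusted p under 0.05, Pdcd1 and Btla, against 628 of all 7542 genes. Btla was lower in KI there without a call (-0.74, SE 0.25, edgeR unadjusted p 0.0079, adjusted p 0.392).

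Tigit (chr16:43648974-43664297, minus strand) encodes the receptor that competes with CD226 for CD155. It ranged from 261 to 343 CPM in WT, with a median of 279, and from 233 to 366 CPM in KI, with a median of 290. The ranges overlapped almost completely. Its log2 fold change in KI was 0.00 (SE 0.17, 95% interval -0.36 to 0.36, edgeR adjusted p 0.9999), a fold interval of 0.779 to 1.29. This was the narrowest interval of the 7 genes, and the sign of so small a value turned under other scalings.

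Ctla4 (chr1:60943844-60972676, plus strand; the pseudogene Rpl18-ps1 lies within it on the same strand) encodes the competitor of CD28. WT libraries held 43.3, 23.6 and 48.3 CPM at first number 1 and 59.0, 43.3 and 84.5 CPM at first number 2. KI libraries held 36.8, 51.4 and 18.6 CPM at first number 1 and 118, 103 and 70.6 CPM at first number 2. The genotypes overlapped at both numbers, and the 2 highest libraries of all were KI 2-1 and KI 2-2. The log2 fold change in KI was 0.39 (SE 0.39, interval -0.43 to 1.20, edgeR adjusted p 0.948). A 2.30-fold higher or a 0.744-fold level in KI both lay within the interval.

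Btla (chr16:45224428-45253008, plus strand) encodes the HVEM receptor with phosphatase-recruiting motifs. WT libraries held 196, 131 and 191 CPM at first number 1 and 197, 274 and 468 CPM at first number 2. KI libraries held 90.8, 53.9 and 90.0 CPM at first number 1 and 252, 346 and 131 CPM at first number 2. At first number 1 the 3 KI values were all under the 3 WT values, as for 7.77% of all genes there, and at first number 2 the genotypes overlapped. At first number 1 the summed regulatory T cell markers (245 to 580 CPM in WT, 107 to 134 CPM in KI) and the summed Tfh markers (1698 to 1990 and 1544 to 1592 CPM) did not overlap either. Nor did the summed general T cell markers there, at 5408 to 5806 CPM in WT and 4816 to 5297 CPM in KI. The part of all these markers in the Btla values was not tested. The log2 fold change in KI was -0.60 over all libraries (SE 0.38, interval -1.40 to 0.20, edgeR adjusted p 0.938). With the first-number term over all libraries it was -0.74 (SE 0.25, interval -1.27 to -0.21, edgeR unadjusted p 0.0079, adjusted p 0.392). Within first number 1 it was -1.15 (SE 0.31, interval -1.81 to -0.49, edgeR unadjusted p 0.0023, adjusted p 0.182). Within first number 2 it was -0.36 (SE 0.34, edgeR adjusted p 0.967).

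Lag3 (chr6:124854379-124861723, minus strand) encodes the MHC class II receptor. WT libraries held 34.9, 51.9 and 44.7 CPM at first number 1 and 103, 66.9 and 43.8 CPM at first number 2. KI libraries held 57.2, 70.7 and 85.2 CPM at first number 1 and 27.4, 46.3 and 27.7 CPM at first number 2. At first number 1 all 3 KI libraries lay above the WT libraries, as did 7.87% of all genes, while at first number 2 the KI mean (33.8 ± 10.8 CPM, SD, n = 3) was below the WT mean (71.2 ± 29.8 CPM, SD, n = 3) and the ranges overlapped. Over all libraries these differences left a log2 fold change of -0.14 (SE 0.34, interval -0.85 to 0.58, edgeR adjusted p 0.972). The separate values were 0.69 at first number 1 (SE 0.37, edgeR adjusted p 0.597) and -1.06 at first number 2 (SE 0.41, edgeR adjusted p 0.913).

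Cd160 (chr3:96602686-96633274, minus strand, overlapping Pdzk1 on the other strand) encodes another HVEM receptor. It ranged from 37.6 to 103 CPM in WT (median 59.7) and from 25.6 to 101 CPM in KI (median 59.1). The log2 fold change was -0.09 (SE 0.32, interval -0.76 to 0.57, edgeR adjusted p 0.979), with separate values of 0.49 (first number 1) and -0.70 (first number 2). Whether the authors' counting used strand is not given in the sources used here, so reads of Pdzk1 could be part of this value.

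Cd200 (chr16:45382248-45409166, minus strand), the ligand of CD200R, ranged from 25.1 to 64.4 CPM in WT (median 39.5) and from 26.0 to 81.9 CPM in KI (median 38.6). The log2 fold change was 0.23 (SE 0.36, interval -0.51 to 0.98, edgeR adjusted p 0.960), with separate values of -0.43 (first number 1) and 0.72 (first number 2). Havcr2 (chr11:46268437-46294757, plus strand) could not be tested. Its 0 counts allow a level of up to 3 counts, which is 1.46 CPM in the deepest library and 5.37 CPM in the shallowest, a limit that covers counting error only. The missed threshold does not show that the 6 other receptors were equal in WT and KI, since the intervals of Ctla4, Lag3, Cd160 and Cd200 reached to 1.49-fold or more and that of Btla down to a 0.379-fold level. Of the 8 B cell markers 6 were tested, 5 lower in KI (median -1.32) and 0 called by edgeR, with 4 at an unadjusted p under 0.05. Both tested regulatory T cell markers, Ikzf2 and Nrp1, were lower in KI (median -0.69), 0 called by edgeR and 1 at an unadjusted p under 0.05. The part of these markers in the KI values was not tested.

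**Figure D2:**
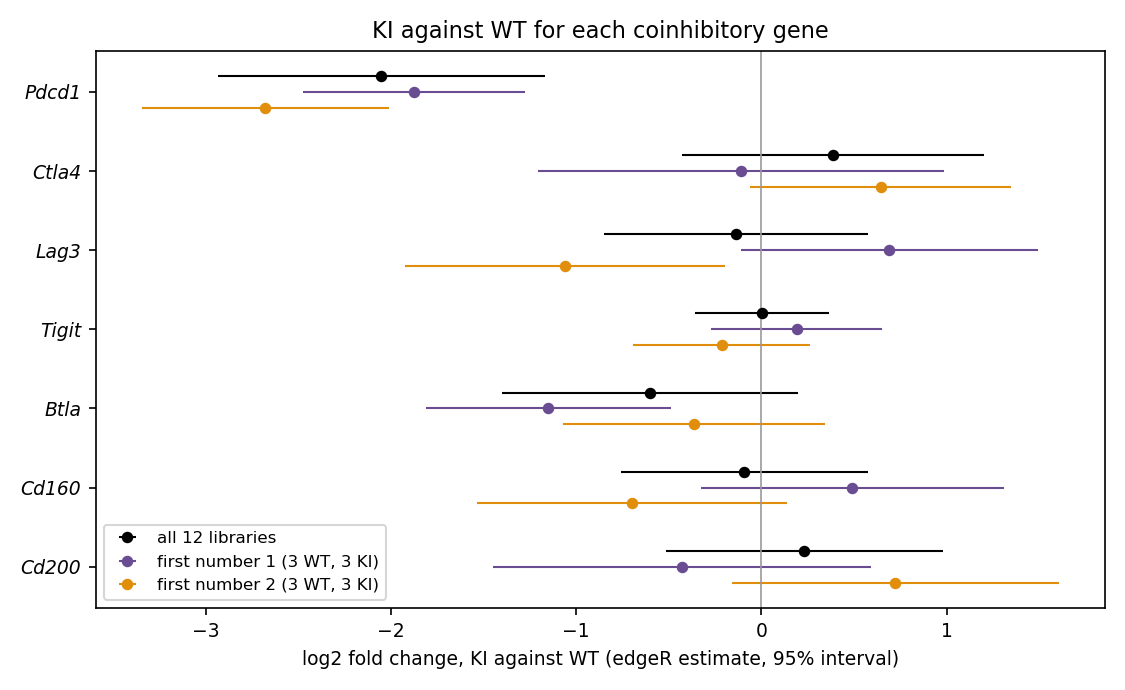
Estimated log2 fold change of KI against WT for the 7 tested genes, with 95% intervals, over all 12 libraries and within each first title number. Pdcd1 lies left of 0 in all 3 fits, from -2.68 to -1.88. The intervals of the other genes over 12 libraries, fitted without a first-number term, include 0, while that of Btla at first number 1 lies left of 0. Ctla4, Lag3, Tigit, Cd160 and Cd200 have estimates of opposite sign at the 2 numbers.

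In the test of whether the KI difference changed with the first number (the interaction), 0 of 7 genes passed the edgeR threshold, as did 0.0% of all genes. Lag3 and Cd160 had an unadjusted p under 0.05, 2 of 7 genes against 7.21% of all genes. The interaction of Lag3 was -1.76 on the log2 scale (SE 0.55, interval -2.91 to -0.61, edgeR unadjusted p 0.0043, adjusted p 0.393). That of Cd160 was -1.20 (SE 0.57, interval -2.37 to -0.02, edgeR unadjusted p 0.0465, adjusted p 0.680). DESeq2 and limma-voom also called 0, with 2 and 1 genes at an unadjusted p under 0.05. For Cd200 the value was 1.14 (SE 0.64, edgeR adjusted p 0.740), for Btla 0.78 (SE 0.48, edgeR adjusted p 0.775), for Ctla4 0.74 (SE 0.59, edgeR adjusted p 0.864) and for Tigit -0.42 (SE 0.29, edgeR adjusted p 0.813). None of these shows that the KI difference depends on the first number.

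Between the first title numbers, with genotype as a term, 3 of 7 receptors were called, against 16.0% of all genes tested. Btla and Ctla4 were higher at number 2 (8.47% of all genes were called higher), and Pdcd1 was lower (7.54% were called lower). Btla rose from 126 ± 58.2 to 278 ± 118 CPM (SD, n = 6 each; log2 fold change 1.24, SE 0.26, edgeR adjusted p 0.0022). Ctla4 rose from 37.0 ± 13.4 to 79.8 ± 27.9 CPM (SD, n = 6 each; 1.08, SE 0.30, edgeR adjusted p 0.0177). Pdcd1 fell from 258 ± 182 to 104 ± 83.1 CPM (SD, n = 6 each; -1.56, SE 0.22, edgeR adjusted p 8.38e-05). Without WT 2-3 the Ctla4 call was lost (1.01, edgeR adjusted p 0.0520), which left 2 of 7. Without WT 1-3 or without KI 2-1, 3 of 7 were called, and the edgeR adjusted p of Ctla4 was 0.0125 and 0.0441.

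The other receptors differed less between the first numbers. Lag3 had a log2 fold change of -0.18 (SE 0.34, edgeR adjusted p 0.764), Tigit of -0.14 (SE 0.15, edgeR adjusted p 0.568), Cd160 of -0.05 (SE 0.31, edgeR adjusted p 0.938) and Cd200 of 0.42 (SE 0.34, edgeR adjusted p 0.425). In WT alone, 1 of 7 was called, Pdcd1 (-1.22, SE 0.26, edgeR adjusted p 0.0227), where 5.01% of all genes were called. Btla (0.83, SE 0.31) and Ctla4 (0.67, SE 0.43) did not pass there, with edgeR adjusted p of 0.136 and 0.399. The WT libraries of Pdcd1 and of Btla did not overlap between the numbers. For Btla this was narrow, with at most 196 CPM at number 1 and at least 197 CPM at number 2. The share of all genes without overlap is not given here for WT. In KI alone, 3 of 7 were called against 4.66% of all genes: Pdcd1 (-1.98, SE 0.36, edgeR adjusted p 0.0053), Btla (1.64, SE 0.34, 0.0107) and Ctla4 (1.45, SE 0.40, 0.0458). In KI alone, the number 1 and number 2 libraries of 5 of 7 genes did not overlap, against 26.1% of all genes: these 3 and, both lower at number 2 without a call, Lag3 (-1.05, SE 0.39, edgeR adjusted p 0.133) and Tigit (-0.34, SE 0.22, edgeR adjusted p 0.398). Cd200 had a value of 0.99 in KI (SE 0.43, edgeR adjusted p 0.186). The interaction tests above did not show that WT and KI differ in this.

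Markers of other cells moved with the first number beside these 3 genes. Of the 9 CD8 and cytotoxic markers, 3 were tested and all 3 were called higher at number 2 by edgeR (Cd8b1, Gzmk and Nkg7), with summed levels that did not overlap between the numbers. Cxcr5 was called lower at number 2, at 340 to 553 CPM against 641 to 801 CPM, while Icos and Sh2d1a, also Tfh markers, were called higher and Tox2 lower. Cd8a, which defines CD8 T cells, was at 0 to 16.6 CPM. Of the 2 tested regulatory T cell markers, Ikzf2 was called higher at number 2 (log2 fold change 1.35), whereas Nrp1 was lower without a call (-0.39). In WT alone, edgeR called Nrp1 lower at number 2 (-1.22). The summed myeloid markers did not overlap in KI, at 1.24 to 14.4 CPM at number 1 and 36.2 to 50.5 CPM at number 2, while in WT they were at 13.0 to 236 and 4.5 to 20.7 CPM. Among them Lyz2, at 0, 0 and 4.12 CPM and then 9.97, 42.9 and 43.6 CPM, was called higher at number 2 in KI alone by edgeR, and Itgax had no reads. The summed B cell markers did not overlap in WT, at 149 to 226 CPM at number 1 and 230 to 363 CPM at number 2. Their part in the differences of Btla, Ctla4 and Pdcd1 was not tested, and what the first number stands for cannot be told apart from them.

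**Figure D3:**
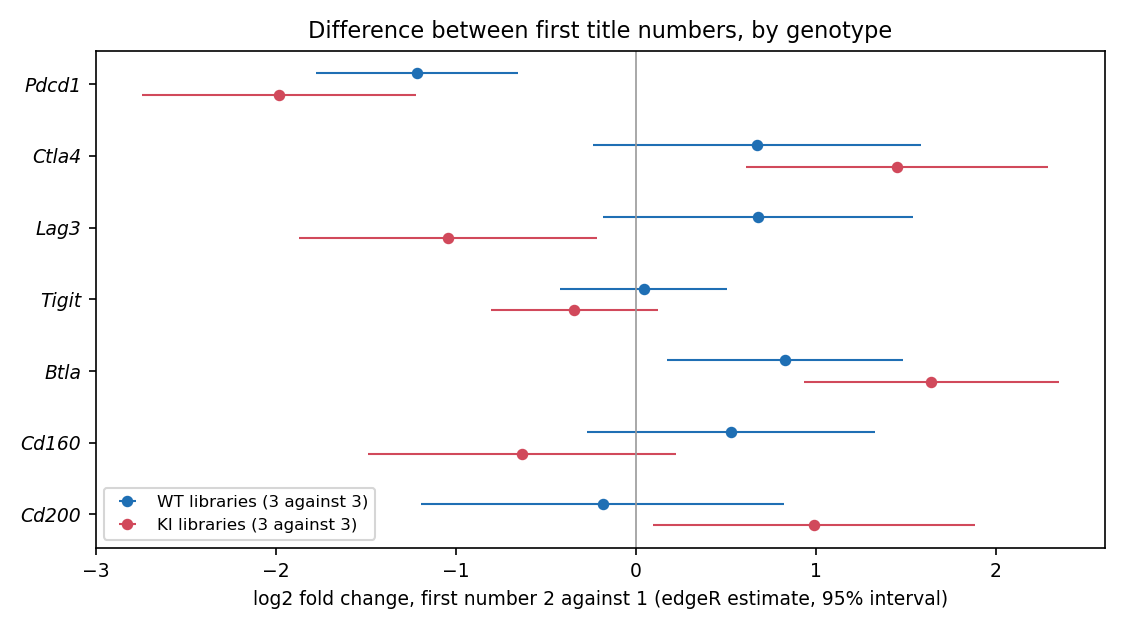
Estimated log2 fold change of first number 2 against 1 with 95% intervals, in WT and in KI libraries (3 against 3 each). Pdcd1 lies left of 0 and Btla right of 0 in both genotypes, and Lag3, Tigit, Cd160 and Cd200 lie on opposite sides of 0 in WT and KI.

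Levels were compared between genes with the authors' FPKM, which scale fragments by transcript length. Tigit was highest, at 195 ± 36.3 FPKM in WT and 206 ± 43.6 FPKM in KI (SD, n = 6 each), and it ranked first of the 8 in all 12 libraries. Pdcd1 was next in WT, at 107 ± 54.7 FPKM, and at 27.4 ± 19.2 FPKM in KI (SD, n = 6 each), where it ranked second in each library with first number 1 and sixth or seventh in each with first number 2. Btla was next by the WT mean, at 54.7 ± 30.9 FPKM. Its KI mean, 36.7 ± 28.1 FPKM, was above that of Pdcd1. In KI, Btla had rank 5 or 6 in each library with first number 1 and rank 2 in each with first number 2. In WT and KI, Lag3 was at 21.0 ± 10.4 and 19.7 ± 9.23 FPKM, Ctla4 at 19.2 ± 9.01 and 25.0 ± 13.8, Cd160 at 18.9 ± 8.25 and 18.2 ± 8.15, and Cd200 at 12.1 ± 3.85 and 15.2 ± 7.75 (SD, n = 6 each). These genes made up a lower tier in WT, with ranks of 4 to 7 in every library. They were no separate tier in KI, where Lag3 and Ctla4 reached rank 3 and Pdcd1 and Btla fell among them. Havcr2 was listed at 0.

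Neighbours in this order overlapped over libraries, except Tigit above Btla in KI and Cd200 above Havcr2 in both genotypes. In WT, 6.02% of the genes with a mean of at least 1 FPKM were above Pdcd1, and in KI 22.0% were. For Tigit these shares were 3.59% and 3.63%. Pdcd1 made up 25.0 ± 11.0% of the summed FPKM of the 8 receptors in WT and 7.62 ± 4.99% in KI (SD, n = 6 each). The summed FPKM of the other 7 receptors was 321 ± 70.2 in WT and 320.4 ± 52.4 in KI (SD, n = 6 each), a difference smaller than the spread between libraries. Tigit, at 195 FPKM in WT and 206 FPKM in KI, made up most of it, so the sum says little about the lower receptors. Within the first numbers the differences of the means were opposite: at first number 1 the sum was 264 ± 41.3 in WT and 333 ± 41.1 in KI, and at first number 2 it was 378 ± 31.0 in WT and 307 ± 68.4 in KI (SD, n = 3 each). The WT and KI ranges of this sum overlapped at both numbers, and these differences were not tested. Tigit alone averaged 176 FPKM in WT and 240 FPKM in KI at first number 1, and 214 and 171 FPKM at first number 2. In CPM its means were 286 and 329 at first number 1, and 300 and 259 at first number 2.

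**Figure D4:**
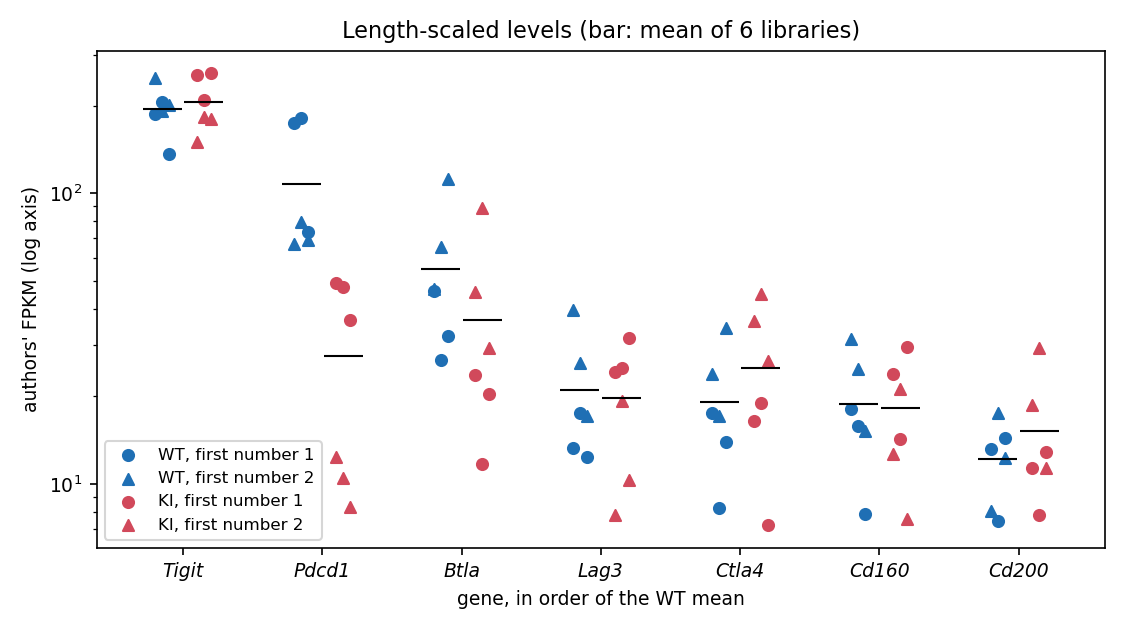
The authors' FPKM of the coinhibitory genes by library (log axis), in the order of the WT mean, with WT and KI libraries side by side. Tigit is the highest in every library, Pdcd1 is second by the WT mean, second in each KI library with first number 1 and within the range of the lower receptors in the KI libraries with first number 2, and Havcr2, listed at 0, is not on the log axis.

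Whether a receptor followed Pdcd1 from library to library was tested after the mean of each genotype and first number had been subtracted, since these 4 sets of 3 libraries differ in Pdcd1. Over 12 libraries and 6 receptors, Pearson's r with Pdcd1 on log2 CPM ran from -0.18 for Cd200 to 0.31 for Cd160 (two-sided exact permutation p 0.406 to 0.901 over all arrangements within the 4 sets, Benjamini-Hochberg adjusted 0.901 each). Spearman's rho ran from -0.31 for Lag3 to 0.17 for Ctla4 (exact permutation p 0.365 to 0.828, adjusted 0.828 each). Without KI 2-2 and KI 2-3, the libraries with Pdcd1 farthest from the median, r ran from -0.61 for Cd200 to 0.17 for Cd160 (exact permutation over 216 arrangements, adjusted p 0.722 to 0.917). No receptor was shown to follow Pdcd1 or to run against it at this number of libraries.

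As a description over the 12 libraries, which share genotype and first number, the genes with patterns most like Pdcd1 in log2 CPM were Gpsm1 (r 0.85), Satb1 (0.84), Pqlc2 (0.83), Tmem203 (0.83) and Tmem41a (0.82), out of 7541 genes. Gpsm1 had means of 20.8 and 11.9 CPM in WT at first numbers 1 and 2 and of 8.34 and 2.89 CPM in KI. Tmem41a had means of 24.8 and 17.0 CPM in WT and of 3.86 and 3.21 CPM in KI. These KI values rest on few counts, with 6, 1 and 1 for Gpsm1 at first number 2 and 0 to 8 per KI library for Tmem41a. Pqlc2 held 3, 12 and 3 counts in KI at first number 2. At first number 1 its genotypes overlapped, with means of 26.3 CPM in WT and 21.9 CPM in KI. Satb1, a chromatin organizer of T cells, had means of 301 and 243 CPM in WT and of 214 and 164 CPM in KI. Among the receptors, Tigit came closest (r 0.33, rank 1335), then Lag3 (0.32, rank 1428) and Cd160 (0.26, rank 1741). Btla (-0.06), Cd200 (-0.41) and Ctla4 (-0.57, rank 7177) had patterns less like or opposite to that of Pdcd1.

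Other genes of the pathway were taken from 5 fixed lists, and 42 of their 64 genes were tested. For KI against WT, 0 of 42 passed in edgeR (5 had an unadjusted p under 0.05), and DESeq2 and limma-voom also called 0 (5 and 4 unadjusted). Of 13 other inhibitory receptors 6 were tested, 4 higher and 2 lower in KI (median log2 fold change 0.29). The scavenger-type receptors Cd5 (0.46, SE 0.27) and Cd6 (0.41, SE 0.22), which restrain T cell receptor signalling, had the smallest p-values, with edgeR adjusted p of 0.938 and 0.919. Of 14 ligands and counter-receptors 6 were tested, 4 higher and 2 lower (median 0.14). The galectin gene Lgals3 averaged 35.7 ± 26.0 CPM over WT libraries and 14.1 ± 7.63 CPM over KI libraries (SD, n = 6 each; -1.31, SE 0.55, edgeR adjusted p 0.917). Pdcd1lg2, which encodes the PD-1 ligand PD-L2, was at 8.10 ± 6.42 and 17.8 ± 16.6 CPM (SD, n = 6 each; 1.15, SE 0.76, edgeR adjusted p 0.938).

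Of 7 paired stimulatory receptors 6 were tested, 3 higher and 3 lower in KI (median 0.14). Tnfrsf18, which encodes GITR, averaged 104 ± 21.0 CPM over WT libraries and 172 ± 43.9 CPM over KI libraries (SD, n = 6 each; 0.72, SE 0.23, edgeR adjusted p 0.914), and 5 of 6 KI libraries lay above all WT libraries. Cd27 was at 597 ± 80.3 and 777 ± 117 CPM (SD, n = 6 each; 0.38, SE 0.17, edgeR adjusted p 0.917). Of 12 inhibitory signalling genes 11 were tested, 5 higher and 6 lower (median -0.12), and the smallest p-values were those of the phosphatase gene Ptpn2 (-0.59, SE 0.34) and the ubiquitin ligase gene Cblb (-0.63, SE 0.40), both with an edgeR adjusted p of 0.938. Of 18 transcription regulators 13 were tested, 5 higher and 8 lower (median -0.10). Nfatc1, whose product activates Pdcd1, averaged 340.1 ± 61.2 CPM over WT libraries and 467 ± 64.7 CPM over KI libraries (SD, n = 6 each; 0.46, SE 0.18, edgeR adjusted p 0.914), with 5 of 6 KI libraries above all WT libraries. Tnfrsf18 and Nfatc1 were named for their small p in this same comparison, so their separation is no further support. Its share over all genes is not given here. Eomes was at 93.4 ± 87.4 and 25.9 ± 30.4 CPM (SD, n = 6 each; -1.85, SE 0.73, edgeR adjusted p 0.914).

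Between the first numbers, 15 of these 42 genes were called by edgeR, against the 16.0% of all genes given above. The inhibitory signalling list held 8 of them, 4 higher and 4 lower at number 2 among 11 tested (median 0.06, beside 0.01 over all genes). Dok2, an adaptor that restrains receptor signalling, fell from 119 ± 34.9 to 28.8 ± 12.1 CPM (SD, n = 6 each; -2.05, SE 0.27, edgeR adjusted p 5.5e-05). Ptpn6, which encodes the phosphatase SHP-1 that binds BTLA and PD-1 tails, fell from 356 ± 50.6 to 204 ± 23.9 CPM (SD, n = 6 each; -0.81, SE 0.15, edgeR adjusted p 0.0009). Ptpn11, which encodes SHP-2, rose by a log2 fold change of 0.56 (SE 0.17, edgeR adjusted p 0.0278). Cblb (1.24), Sh2d1a (0.74) and Ptpn22 (0.63) also rose, and Csk (-0.75) and Grb2 (-0.75) also fell.

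Among the other inhibitory receptors 2 of 6 were called at number 2: the ectoenzyme gene Nt5e (CD73) was higher (1.12, SE 0.22, edgeR adjusted p 0.0015) and 4632428N05Rik, the older symbol of the VISTA gene, was lower (-1.02, SE 0.19, edgeR adjusted p 0.0009). The stimulatory receptor genes Icos (0.76, SE 0.21, edgeR adjusted p 0.0158) and Cd28 (0.50, SE 0.15, edgeR adjusted p 0.0237) were higher, 2 of 6, but each call rested on single libraries. The Icos call was lost without KI 1-3 (edgeR adjusted p 0.0580), and the Cd28 call without WT 1-1, WT 2-3, KI 1-2 or KI 2-2 (0.0522, 0.0568, 0.0633 and 0.0599). Of the ligands 0 of 6 were called by edgeR, with 1 at an unadjusted p under 0.05, and DESeq2 called 1, Lgals9 (-0.45, adjusted p 0.0382). Lgals9 had an edgeR adjusted p of 0.0662 (-0.45), and of 0.0492 without KI 1-3, and Pvr, which encodes the TIGIT ligand CD155, one of 0.222 (0.71). Among the regulators 3 of 13 were called: Batf (-1.12, SE 0.28, edgeR adjusted p 0.0088) and Tox2 (-1.30, SE 0.37, 0.0207) were lower and Eomes (2.11, SE 0.56, 0.0134) was higher. The Eomes call was lost without KI 2-2 (1.69, edgeR adjusted p 0.0880). The rise of Gzmk and Nkg7 at number 2, given above, moved with Eomes, and its part was not tested.

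**Figure D5:**
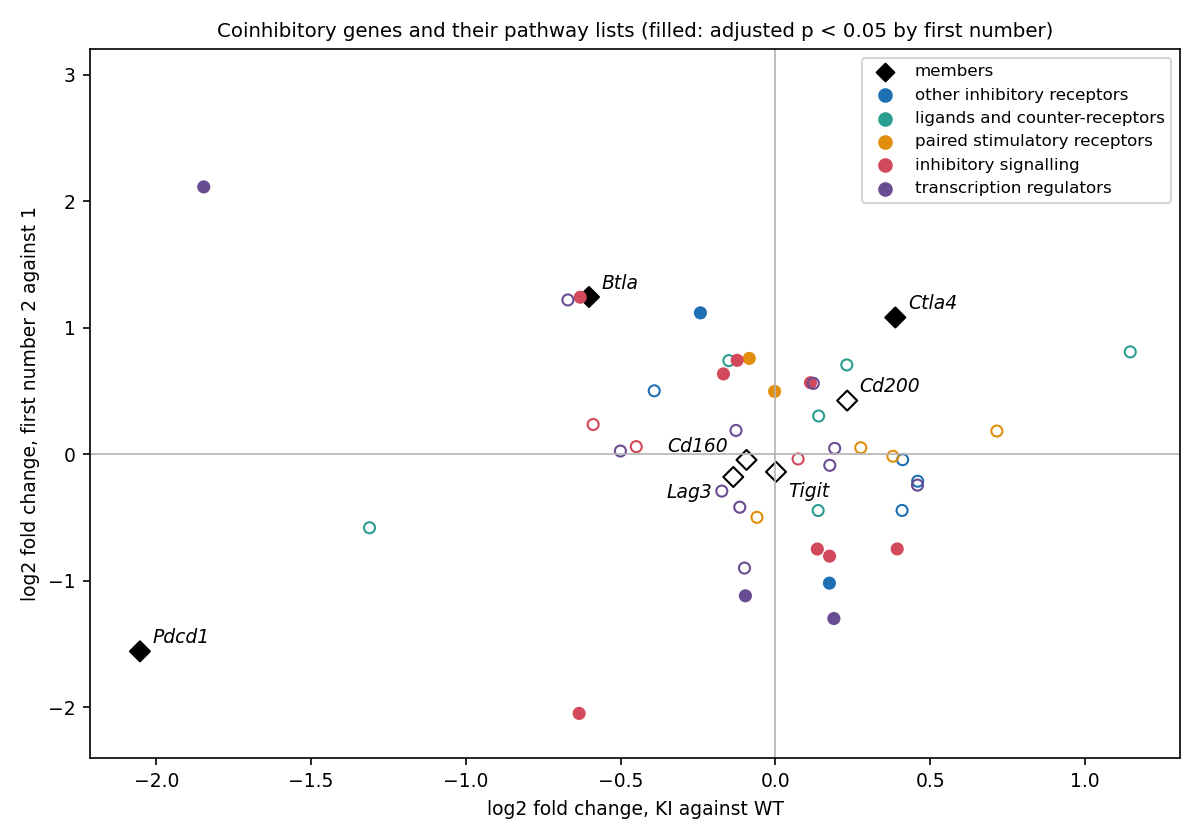
Log2 fold changes of KI against WT (x axis) and of first number 2 against 1 (y axis) for the 7 tested coinhibitory genes (diamonds, named) and 42 genes of the 5 pathway lists (circles, coloured by list); filled symbols passed the edgeR threshold by first number, and 0 passed by genotype. Pdcd1 lies farthest left, below 0 on both axes, whereas Btla and Ctla4 lie high on the y axis.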

How the data were processed

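RNA was measured in 12 libraries, 6 per genotype, and groups were taken from the labels. The authors deposited raw read counts per gene symbol (25793 genes and 5 summary entries, which the counting left with 39.8% to 53.9% of reads outside genes or set aside) and a table of FPKM, fragments scaled by the authors to transcript length and depth (25819 entries, with repeated names summed here). CASAVA, TopHat2, Cufflinks, HTSeq, DESeq2 and the build mm9 are named in the submitters' processing notes; versions, annotation and use of strand are not given in the sources used here.

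Testing used edgeR 4.0.16 under R 4.3.3 on the deposited counts: default filterByExpr (7542 genes), TMM scaling, quasi-likelihood F test without a block, and Benjamini-Hochberg adjustment over all genes with a threshold of 0.05. The first-number fit had a genotype term, the interaction fit both terms, and the fits within a first number or genotype used those 6 libraries and their own filter. Standard errors of log2 fold changes were derived from their F statistics. DESeq2 1.42.0, limma-voom (limma 3.58.1), other scalings and filters, limma on log2(FPKM + 1) and log2(FPKM + 0.1) of genes with at least 1 FPKM in 6 libraries, replicate blocks and leaving out each library were alternatives. Scripts were tested on simulated counts. Each of 30 same-genotype library pairs differed by more than sampling noise (chi-square per degree of freedom 8.90 to 43.1). Amplified reads are not independent molecules.

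The members and gene lists (other inhibitory receptors, ligands and counter-receptors, paired stimulatory receptors, inhibitory signalling, transcription regulators, and markers of 6 cell types) were chosen with earlier results of these data known. By rule the text names all 8 receptors, the 5 genes most correlated with Pdcd1, and the 2 genes per list with the smallest p in each comparison; other called list genes and the marker genes shown were chosen once their values were known. Gene positions are from GENCODE vM1 on NCBIM37, the same assembly as mm9, and upstream sequences from RefSeq on GRCm38.p6.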

Additional observations from a re-analysis of the deposited data

Results flagged for a closer look

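In 62 sets of 6 libraries of the same genotype, the highest or lowest library was compared with the gap and range of its set. In 6 sets a library lay far from the others, in each case the highest. The nominal rate of about 1 in 20 sets assumes alike, normally spread values. These sets hold both first numbers on the linear CPM scale, so that rate need not apply. None of the 6 flagged sets was of a coinhibitory receptor. Among the pathway genes, Batf was at 160 CPM in WT 1-1 against 86.1 CPM in the next WT library, and Cd27 was at 1009.8 CPM in KI 2-1 against 771 CPM in the next KI library. Eomes was at 83.3 CPM in KI 2-2 against 28.7 CPM in the next, and Pvr was at 40.9 CPM in KI 2-3 against 23.7 CPM. Of the genes most like Pdcd1, Gpsm1 was at 43.6 CPM in WT 1-2 against 19.7 CPM in the next WT library, and Satb1 was at 419 CPM in the same library against 267 CPM. WT 1-2 was also the library with the highest Pdcd1, at 523 CPM. Gpsm1 and Satb1 were picked for their likeness to Pdcd1 over these same libraries, so the shared peak is no separate observation.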

How the results depend on the processing

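The number of receptors called for KI against WT was 0, and 1 (Pdcd1) with DESeq2, without a filter, with a replicate block by first number, with a replicate block by both numbers, within first number 1 and within first number 2. Pdcd1 was then at -2.07 (DESeq2 adjusted p 0.0012), -2.01 (edgeR adjusted p 0.0364), -2.24 (7.6e-06), -2.23 (5.1e-05), -1.88 (0.0400) and -2.68 (0.0010), and at -2.32 to -1.81 (edgeR adjusted p 0.122 to 0.565, 0 called) when single libraries were left out. Over all genes, 2 were called for KI against WT, 11 with DESeq2, 4 with no filter, and 4 and 3 with the blocks. The full numbers were not taken to pair the samples, since deviations of same-numbered WT and KI libraries correlated at 0.08 to 0.26 and not all exceeded 0.1 (5 of 6 did), and 4 of 12 libraries correlated best with their own number. WT and KI libraries with a shared first number did deviate together (mean correlation 0.166, against -0.165 for another first number), a hint from the data and not from the labels. With the block by first number, Btla was at -0.74 (edgeR adjusted p 0.392), and no receptor other than Pdcd1 changed its call. By first number 3 receptors were called, 1 in WT alone, and 2 to 3 without single libraries; without the genotype term Pdcd1 missed the threshold (-1.30, edgeR adjusted p 0.0796). The interaction and the correlation with Pdcd1 gave 0 under every alternative. Values that changed sign, none of them called, were for KI against WT those of Tigit (-0.0088 with RLE, -0.0092 with upper-quartile scaling, -0.0090 with DESeq2, -0.0067 with limma-voom, -0.0089 and -0.0063 with the blocks, -0.0328 with a mean of at least 50 counts, -0.0260 with summed libraries, -0.22 within first number 2) and, within first number 1, Ctla4 (-0.11), Lag3 (0.69), Cd160 (0.49) and Cd200 (-0.43). By first number they were Cd160 (0.0134 with a mean of at least 50 counts, 0.0168 and 0.0161 with log2(FPKM + 1) and log2(FPKM + 0.1)) and, in WT alone, Cd160 (0.53), Lag3 (0.68), Tigit (0.0416) and Cd200 (-0.19). Leaving out single libraries moved KI against WT over -0.0679 to 0.0631 for Tigit, -0.29 to 0.0881 for Cd160 and -0.32 to 0.12 for Lag3, and the first-number values over -0.22 to 0.17 for Cd160 and -0.42 to 0.0049 for Lag3. The other alternatives of these results, 453 of 488 apart from single libraries, kept direction and call. The causes were not tested.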

Other observations

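Genes near Pdcd1 were looked at after their values had been seen. Within 500 kb of Pdcd1 on either side, the annotation holds 16 genes, 13 of them in the count table and 6 tested. For KI against WT, 3 were higher and 3 lower, with a median log2 fold change of 0.12, and 0 of 6 passed the edgeR threshold (1 had an unadjusted p under 0.05) or had groups that did not overlap. Stk25, a kinase gene 402585 bases away, was lower in KI (-0.98, SE 0.34, edgeR unadjusted p 0.0090, adjusted p 0.914), and D2hgdh, 185959 bases away, had a log2 fold change of -0.92 (SE 0.46). Dtymk (0.43), Thap4 (0.52), Ing5 (0.25) and Atg4b (-0.00) had smaller values.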
